A study of Mus musculus with 4 samples.

Results

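The genes described here are the constant genes of the T cell receptor together with Prss2, a trypsinogen gene that lies inside the receptor beta locus. They are 8 of the 32285 genes in the count tables: Trac, Trbc1, Trbc2, Trdc, Tcrg-C1, Tcrg-C2, Tcrg-C4 and Prss2. They were chosen by symbol, after their unique molecular identifier (UMI) counts had been seen in Cd4, Cd8 and Foxp3 cells of control and knockdown tumors, at least 20 or under 20 Ccl5 UMIs per cell. Their levels in those classes, and the differences between the groups, are therefore given as a description without a test. The cells were intratumoral T cells sorted as live CD3-positive cells out of subcutaneous tumors of the Tsc2-deficient mouse kidney tumor line 105K, grown in wild-type C57BL/6J mice. The control tumors carried a non-targeting hairpin RNA (sh-NC), and the knockdown tumors carried one that targets Cd276, which encodes the checkpoint protein B7-H3 (sh-B7-H3 (1)). Every tumor of either group was thus Tsc2-deficient and carried a hairpin. The age of the mice was not given in the labels used here, but the study's methods state it, with male sex, for its subcutaneous tumors. Per the labels, 80 tumors of each group were pooled and loaded in duplicate lanes, giving 2 control and 2 knockdown libraries with RNA and antibody-tag counts of the same cells (CITE-seq). The study's own text differs from the labels on this point, calling the libraries independent samples in a legend and naming a single lane in its methods. If the labels hold, the spread between libraries is the spread between lanes of 1 pool, and any difference in handling between the pools cannot be told apart from the knockdown. Cd276 was targeted in the tumor cells and not in the sorted T cells, so its level here checks no label.

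Most T cells carry an alpha-beta receptor, in which a variable segment of each chain is joined to the constant region encoded by Trac for the alpha chain and by Trbc1 or Trbc2 for the beta chain. Gamma-delta T cells, a smaller lineage found in barrier tissues and in tumors, instead use Trdc for the delta chain and Tcrg-C1, Tcrg-C2 or Tcrg-C4 for the gamma chain. A beta chain joined to a segment of the first J cluster is spliced to Trbc1, and one joined to the second J cluster is spliced to Trbc2. Prss2 encodes a digestive proenzyme of the pancreas, and its gene sits between the beta variable segments and the first D segment, in DNA that most V-to-D joins remove from the rearranged chromosome.

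In the mouse build GRCm38, Trbc1 lies on chromosome 6 from 41538218 to 41539881 and Trbc2 from 41546730 to 41548352, both on the plus strand. Prss2 lies upstream of them, from 41521787 to 41525079, 8122 bases before the D segment Trbd1 and 239797 bases after the variable segment Trbv30. Trac, at 54220521 to 54224206, and Trdc, at 54142851 to 54148868, share a locus on chromosome 14, so that the delta genes lie within the alpha locus. Tcrg-C1 (19214103 to 19217024), Tcrg-C2 (19304649 to 19307551, minus strand) and Tcrg-C4 (19344558 to 19352756) lie on chromosome 13. Trbc1 and Trbc2 are near copies, and the following stretch of their coding sequences shows what sets their reads apart. It is the run of 30 coding bases with the most differences, counted from base 479 to base 508 of each coding sequence in the GENCODE transcripts, and capitals mark the 7 bases that differ there.
Trbc1: tACActggtgGtgatggcTatggtcaaAaG
Trbc2: tGGCctggtgCtgatggcCatggtcaaGaA
Over all 518 coding bases the pair was 95.6% identical, with 23 differences. Of the 300 windows of 50 bases that end the Trbc1 transcript, where 3′ libraries place their reads, 0 occurred in Trbc2, so the counts of these paralogs could be separated. Tcrg-C1 and Tcrg-C2 shared 55 of the last 100 such windows, which makes the split of UMIs between those genes uncertain, whereas Tcrg-C4 shared 0 with either. A UMI stands for 1 captured molecule whatever the transcript's length.

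The called cells numbered 7030 to 12112 per library, with 79224898 to 132820909 RNA UMIs. After quality limits and removal of 13.8 to 17.8% of cells as doublets, 3016 to 6203 cells were kept, of which 13978 fell into 6 classes: Cd4, Cd8 and Foxp3 cells with at least 20 Ccl5 UMIs (Ccl5-high) or under 20 (Ccl5-low). Ccl5 encodes a chemokine of effector and memory T cells. Any pair of libraries shared 17 to 35 cell barcodes. Levels are UMIs of a gene per 1000000 RNA UMIs (CPM) summed over the cells of a class in a library, which gives 24 sums. The Cd3d, Cd3e and Cd3g markers summed to between 2392 and 7392 CPM in every one of them, and the NK cell markers Ncr1, Klrb1c, Klra8 and Klra4 to at most 3.77. Myeloid markers moved with the group. In the Cd8 Ccl5-high cells the 6 genes summed to 19.2 and 11.1 CPM in the control libraries, with 1 and 2 of them at 0, and to 32.2 and 29.3 in the knockdown libraries, with 0 at 0. In the Cd4 Ccl5-low cells they summed to 3.75 and 5.32 against 29.6 and 22.3 CPM. The 4 B cell markers moved the other way, to 68.6 and 71.3 CPM in the control against 41.9 and 38.7 in the knockdown libraries of Cd8 Ccl5-high cells, and lay between 22.4 and 328 over all sums. The 5 tumor or stroma markers lay between 2.16 and 77.3 CPM, with 28.7 and 24.3 against 16.0 and 19.4 in Cd8 Ccl5-high cells. The part of these cells in the differences below was not tested. The class sizes also moved with the group, and the Foxp3 Ccl5-high class held only 15, 16, 24 and 28 cells, so its values are imprecise.

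Beta and alpha chain genes were detected in nearly all cells and the others in few. A Trbc2 UMI was present in 99.3% of the 13978 cells, a Trac UMI in 96.3% and a Trbc1 UMI in 67.8%. Tcrg-C2 was found in 10.6%, Tcrg-C1 in 3.31%, Trdc in 2.48%, Tcrg-C4 in 2.11% and Prss2 in 0.644%. UMIs of some of these genes were also counted in cells that should lack them. Among the 54 to 134 cells per library called myeloid by their own markers, which had fewer UMIs per cell (medians of 2211 to 4422, against 5877 to 9271.5 in the 5 larger T cell classes), 18.7 to 41.8% held a Trac UMI and 33.6 to 53.8% a Trbc2 UMI, but none held a Prss2 UMI. For Prss2, 0 of 134 and 0 of 117 myeloid knockdown cells allow shares of up to 2.24 and 2.56%. Intervals and limits given here cover counting error only.

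**Figure D1:**
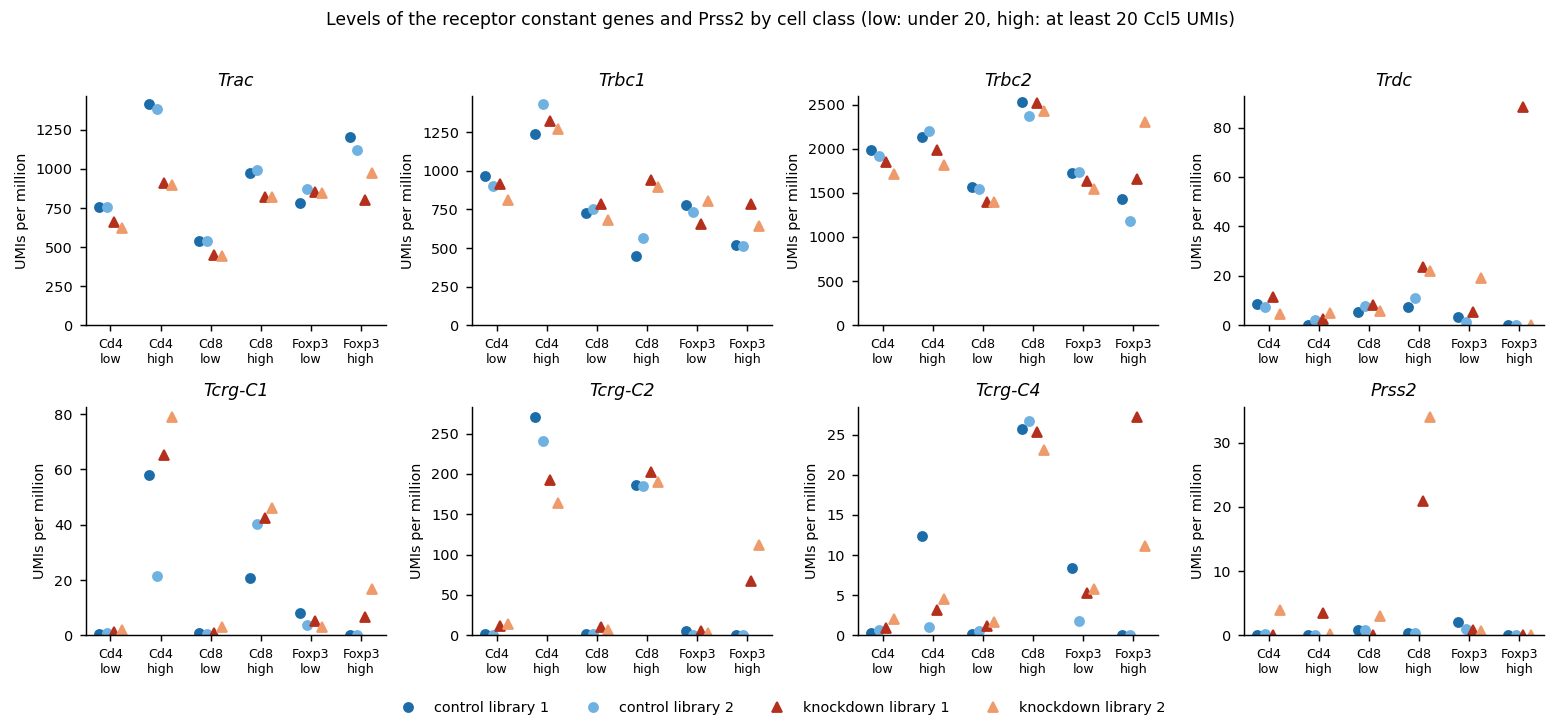
CPM (UMIs per 1000000 RNA UMIs, y axis, from 0) of the 8 genes in each of the 6 cell classes (x axis), with 1 point per library: circles for control and triangles for knockdown libraries. Trac spans 444 to 1416 and Trbc2 1178 to 2526, Tcrg-C2 reaches 164 to 270 in the Ccl5-high Cd4 and Cd8 cells, and Prss2 stands out in the 2 knockdown libraries of Ccl5-high Cd8 cells at 20.8 and 33.9.

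Trac, the alpha chain constant gene, was higher in Ccl5-high than in Ccl5-low cells, except in Foxp3 cells of knockdown library 1 (801 against 855 CPM), and lower in the knockdown libraries of most classes. In Cd4 Ccl5-high cells its level was 1416 and 1385 CPM in the control libraries against 908 and 899.5 in the knockdown libraries. In Cd4 Ccl5-low cells it was 758 and 758 against 659 and 622. The Cd8 Ccl5-high cells gave 974 and 994 against 818 and 820, and the Cd8 Ccl5-low cells 536 and 536 against 447 and 444. The libraries of a group lay close together, and the groups did not overlap in any of these classes or in the Foxp3 Ccl5-high cells (1205 and 1120 against 801 and 974). They did overlap in the Foxp3 Ccl5-low cells, at 785 and 870 against 855 and 847. The fitted log2 difference, knockdown over control, was -0.56 (SE 0.056) in Cd4 Ccl5-high, -0.21 (SE 0.030) in Cd4 Ccl5-low, -0.23 (SE 0.040) in Cd8 Ccl5-high and -0.19 (SE 0.032) in Cd8 Ccl5-low cells. For scale, the share of all tested genes called as changed, at an adjusted p under 0.05 and an absolute log2 difference of at least 0.5, was 1.77, 4.36, 5.73 and 2.48% in those classes and 3.5% in Foxp3 cells of any Ccl5 level. The low-count filter of the fit was passed by 5 of the 8 members in Cd4 Ccl5-high, 5 in Cd4 Ccl5-low, 8 in Cd8 Ccl5-high, 6 in Cd8 Ccl5-low and 7 in Foxp3 cells, and Prss2 passed it in Cd8 Ccl5-high cells only. Since these contrasts were in view when the genes were chosen, nothing is read from that comparison.

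Among the control libraries the classes held a fixed order for Trac without overlap of neighbors, from Cd4 Ccl5-high over Foxp3 Ccl5-high, Cd8 Ccl5-high, Foxp3 Ccl5-low and Cd4 Ccl5-low down to Cd8 Ccl5-low. In the knockdown libraries the values of the upper 4 classes ran together between 801 and 974, while Cd4 Ccl5-low and then Cd8 Ccl5-low cells stayed below. Within a library, Trac was 1.82 to 1.86 times as high in Ccl5-high as in Ccl5-low Cd8 cells, nearly the same in all 4 libraries. In Cd4 cells the ratio was 1.87 and 1.83 in the control against 1.38 and 1.45 in the knockdown libraries. The Trac difference of the Cd4 cells between the groups was thus larger in those with high Ccl5, a difference that was not tested.

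Trbc2 varied least. Its lowest level was 1178 and its highest 2526 CPM, and the fitted log2 differences lay between -0.11 and 0.05 (SE 0.025 to 0.061) in the 5 comparisons, with both Foxp3 classes joined. In the small Foxp3 Ccl5-high class alone its mean was 1301 CPM in the control against 1977 in the knockdown libraries (log2 ratio 0.60), without overlap. In Cd8 Ccl5-high cells, where it was highest, it stood at 2526 and 2373 CPM in the control against 2513 and 2427 in the knockdown libraries, and the groups overlapped. Cd8 Ccl5-low cells held 1568 and 1540 against 1397 and 1394 CPM. Within each library Cd8 Ccl5-high cells exceeded Cd8 Ccl5-low cells 1.54- to 1.80-fold, whereas in Cd4 cells the ratio was only 1.06 to 1.15.

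Trbc1, the other beta constant gene, differed most between the groups in Cd8 Ccl5-high cells. There its level was 446 and 567 CPM in the control libraries against 944 and 898 in the knockdown libraries, a fitted log2 difference of 0.90 (SE 0.043). A Trbc1 UMI was found in 49.6 and 50.9% of these control cells and in 62.3 and 62.5% of the knockdown cells. The groups were far apart in this class and overlapped in Cd8 Ccl5-low cells (726 and 754 against 786 and 684 CPM). They also overlapped in Cd4 Ccl5-high cells (1239 and 1434 against 1325 and 1271) and in Cd4 Ccl5-low cells (969 and 902 against 913 and 813). Foxp3 Ccl5-low cells gave 779 and 733 against 658 and 804, and Foxp3 Ccl5-high cells 518 and 512 against 787 and 646 CPM. The latter did not overlap, but rest on 52 to 116 UMIs per library, and with a Ccl5 limit of 10 their log2 ratio went from 0.48 to -0.085. Accordingly, Trbc1 was 1.63 and 1.33 times lower in Ccl5-high than in Ccl5-low Cd8 cells of the control libraries, but 1.20 and 1.31 times higher in the knockdown libraries.

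Set against Trbc2, Trbc1 took 15.0% (exact binomial 95% interval 14.2 to 15.8) and 19.3% (18.5 to 20.1) of the Trbc1 and Trbc2 UMIs of Cd8 Ccl5-high cells in the control libraries. The knockdown libraries gave 27.3% (26.6 to 28.0) and 27.0% (26.4 to 27.6). Each interval here counts UMIs as independent, but the UMIs of a cell share its beta chain, so the intervals are too narrow. In Cd8 Ccl5-low cells the shares were 31.6 and 32.9% against 36.0 and 32.9%, in Cd4 Ccl5-low cells 32.8 and 32.0% against 33.1 and 32.2%, and in Cd4 Ccl5-high cells 36.8 and 39.5% against 40.05 and 41.2%. Foxp3 Ccl5-low cells gave 31.2 and 29.7% against 28.7 and 34.2%. The small Foxp3 Ccl5-high class gave 26.7 and 30.3% against 32.2 and 21.9% (18.5 to 25.7 for the last). The share of Cd8 Ccl5-high cells was thus below that of the other Cd4 and Cd8 classes in both groups and lower in the control, while single Foxp3 values reached as low as those of the knockdown. Since a T cell usually makes 1 beta chain, single cells were also described. Among Cd8 Ccl5-high cells with 10 or more beta constant UMIs, 65.9 and 59.3% of control cells and 49.3 and 50.5% of knockdown cells had a Trbc1 share under 10%. In Cd8 Ccl5-low cells 36.0 to 41.1% lay in that range, and in Cd4 Ccl5-high cells 28.8 to 32.0%.

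The opposite extreme was nearly empty. A Trbc1 share over 90% was found in 0 to 2.70% of the cells of the Cd4 and Cd8 classes in every library but 1, the exception being the Cd4 Ccl5-high cells of control library 1 with 5.6% (7 of 125 cells). Cells rich in Trbc1 instead spread over shares of 40 to 80%, so most of them also held Trbc2 UMIs. Free RNA held both genes in quantity, with 901 to 1034 Trbc1 and 1740 to 1879 Trbc2 CPM among barcodes of at most 100 UMIs. The part of free RNA in these mixed cells was not tested. After thinning every cell to 1000 UMIs, 15.4 and 19.6% of Cd8 Ccl5-high control cells and 33.7 and 31.1% of knockdown cells held both genes, and 67.4 and 60.8% against 52.8 and 54.7% held Trbc2 alone.

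**Figure D2:**
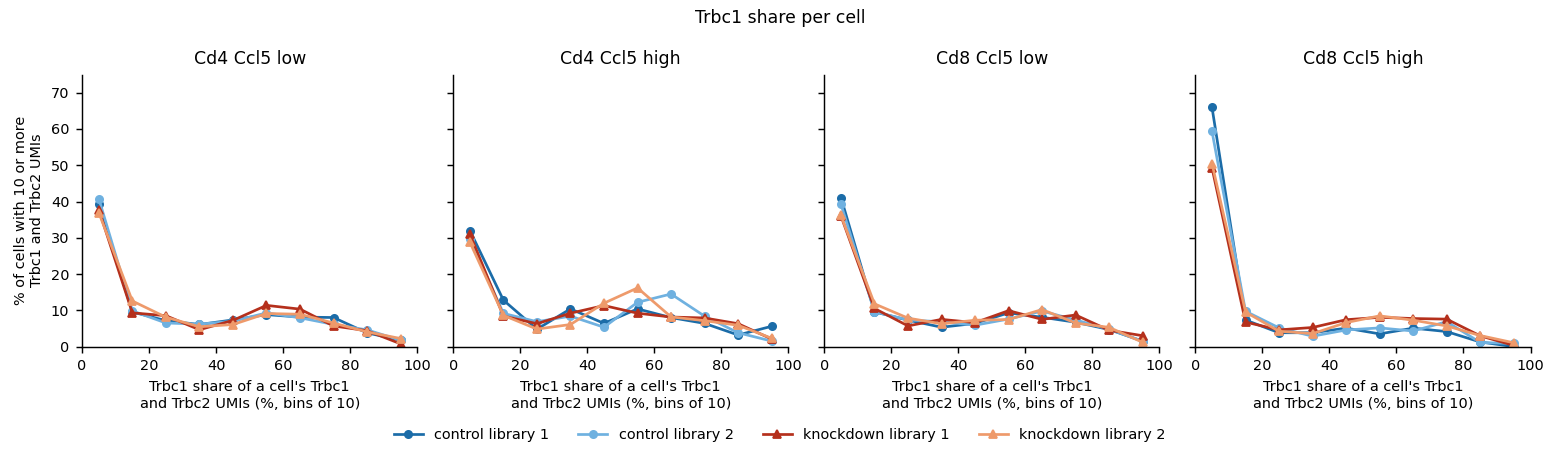
Distribution of the Trbc1 share of a cell's Trbc1 and Trbc2 UMIs (x axis, in bins of 10 percentage points) over cells with 10 or more such UMIs (y axis, percent of cells), 1 line per library, for 4 classes. All lines peak under 10% and show cells spread over shares of 40 to 80%. In Cd8 Ccl5-high cells the first bin holds 65.9 and 59.3% of control and 49.3 and 50.5% of knockdown cells.

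Tcrg-C2, a gamma chain constant gene, had the highest level of the gamma genes in Ccl5-high Cd4 and Cd8 cells. In Cd4 Ccl5-high cells its level was 270 and 241 CPM in the control libraries against 192 and 164 in the knockdown libraries. Cd8 Ccl5-high cells held 186 and 185 against 202.2 and 190 CPM. In Ccl5-low cells it did not exceed 1.36 CPM in either control library and 13.6 in either knockdown library, for Cd4 as for Cd8 cells. The gene was thus high in both groups where Ccl5 was high, lower in the knockdown among Cd4 cells (log2 -0.45, SE 0.092) and nearly equal among Cd8 cells (log2 0.11, SE 0.063). Of Ccl5-high cells, 40.4 and 37.1% (control) and 37.1 and 34.7% (knockdown) of Cd4 and 30.3 and 31.1% against 38.2 and 36.9% of Cd8 cells held a Tcrg-C2 UMI. After thinning to 1000 UMIs these shares were 19.9 and 16.1% against 14.0 and 12.6% in Cd4 cells and 13.9 and 15.7% against 15.4 and 12.3% in Cd8 cells.

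In Ccl5-low cells the fold between groups was large and the levels were low. Cd4 Ccl5-low cells held 1.30 and 0.686 Tcrg-C2 CPM in the control libraries against 11.97 and 13.6 in the knockdown libraries (log2 3.69, SE 0.29). Cd8 Ccl5-low cells held 1.31 and 1.36 against 10.2 and 6.66 (log2 2.67, SE 0.28). Myeloid cells of the same libraries held 6.87 and 36.4 (control) and 7.71 and 18.5 CPM (knockdown), and free RNA held 15.2 and 15.6 against 52.6 and 44.9. The Ccl5-low values of all 4 libraries lay below the free RNA of their own library and within or below the myeloid range. No difference in expression is therefore read from them. The median Ccl5 count of both Ccl5-low classes was 0 in the control libraries and 1 in knockdown library 1. The part of Ccl5 in this fold was not tested. In Foxp3 Ccl5-high cells, 6 of 24 and 5 of 28 knockdown cells and 0 of 15 and 0 of 16 control cells held a Tcrg-C2 UMI, and 0 of that few cells allows a share of up to 20 and 18.8%.

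The rise with Ccl5 was gradual across its bins rather than set by the limit of 20. In Cd8 cells, Tcrg-C2 stood at 0.314 to 5.34 CPM with 0 Ccl5 UMIs, 10.7 to 64.6 with 5 to 19, 52.8 to 180 with 20 to 49, and 203 to 234 with 50 or more. Tcrg-C4 followed in Cd8 but hardly in Cd4 cells. In Cd8 Ccl5-high cells it was at 25.6 and 26.7 CPM in the control against 25.3 and 23.1 in the knockdown libraries. In Cd4 Ccl5-high cells it was at 12.4 and 1.02 against 3.09 and 4.51, a spread within the control group as wide as the whole range of the 4 libraries, and the log2 ratio went from -0.82 to 1.90 without control library 1 and to -1.71 without control library 2. Tcrg-C1 was found at 57.9 and 21.3 against 65.2 and 78.8 CPM in Cd4 Ccl5-high cells, and at 20.7 and 40.2 against 42.4 and 46.2 in Cd8 Ccl5-high cells. Its fitted log2 differences were 0.96 (SE 0.23) and 0.56 (SE 0.13). The log2 ratio of the mean CPM in Cd4 Ccl5-high cells, 0.86, became 1.76 without control library 1 and 0.31 without control library 2, and that in Cd8 Ccl5-high cells, 0.54, became 0.14 and 1.09. Part of these UMIs may belong to Tcrg-C2, given the shared ends of the transcripts. In the Ccl5-low Cd4 and Cd8 cells neither Tcrg-C1 nor Tcrg-C4 exceeded 3.06 CPM.

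**Figure D3:**
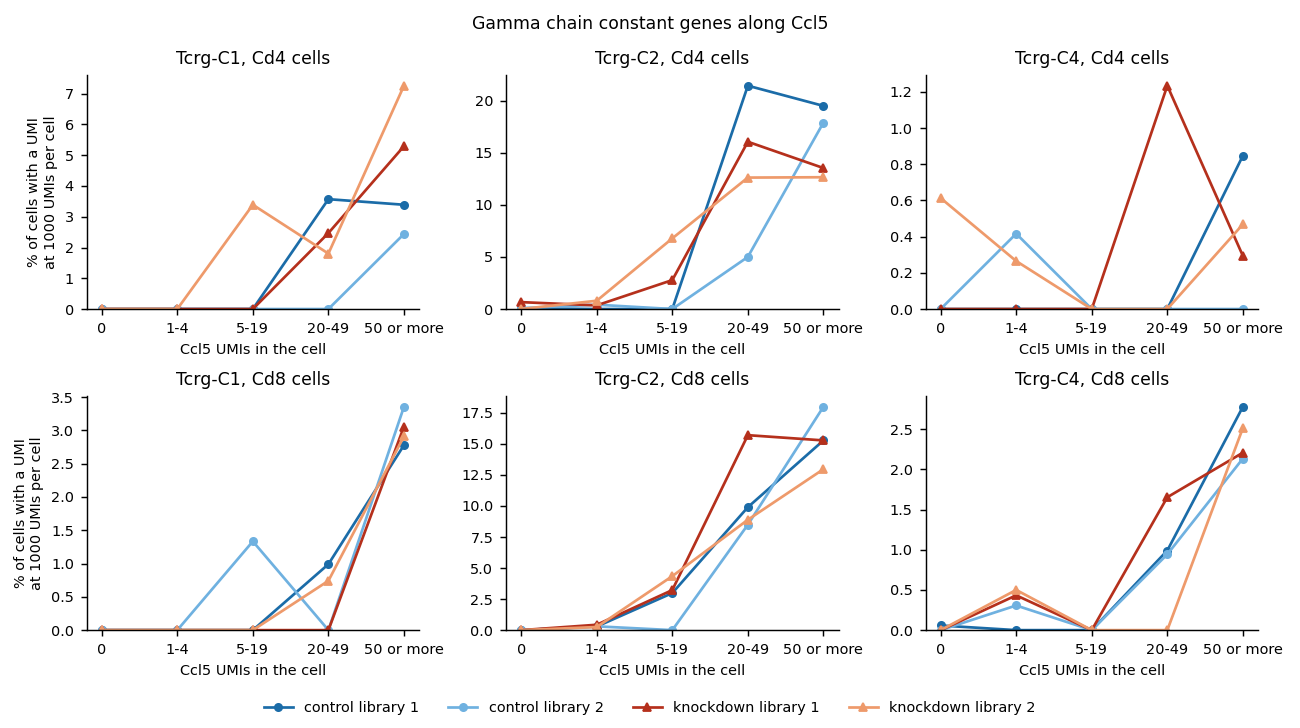
Percent of cells with a UMI of Tcrg-C1, Tcrg-C2 or Tcrg-C4 after thinning to 1000 UMIs per cell (y axis), by the number of Ccl5 UMIs in the cell (x axis), for Cd4 cells (top) and Cd8 cells (bottom), 1 line per library. Tcrg-C2 rises from under 1% at 0 Ccl5 UMIs to between 12.6 and 19.5% of Cd4 cells and between 13.0 and 18.0% of Cd8 cells at 50 or more.

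Cells with Tcrg-C2 also held alpha and beta chain transcripts. Of Ccl5-high Cd4 and Cd8 cells with 3 or more Tcrg-C2 UMIs, 97.1 to 100% held a Trac UMI, 98.9 to 100% a Trbc2 UMI and 0 to 4.38% a Trdc UMI. They also carried the antibody tag of the receptor beta chain. In Cd4 Ccl5-high cells the tag took 144, 124, 113 and 117 per 10000 tag UMIs of such cells in control libraries 1 and 2 and knockdown libraries 1 and 2. Cells without a Tcrg-C2 UMI gave 150, 164, 139 and 151 there, so the tag was somewhat lower with Tcrg-C2 in 4 of 4 libraries. In Cd8 Ccl5-high cells it was 72.3, 71.4, 66.3 and 75.9 against 70.0, 74.2, 88.6 and 89.1. The Tcrg-C2 transcripts also came with a variable gene. Trgv2, the neighboring segment on the same minus strand, at 19336573 to 19337167, was found in 86.0 to 100% of cells with 3 or more Tcrg-C2 UMIs and in 3.45 to 7.52% of cells with none. Beside Tcrg-C1 several segments were found. Of Cd4 Ccl5-high cells with 3 or more Tcrg-C1 UMIs, 0 of 9 and 1 of 3 in the control and 11 of 25 and 20 of 44 in the knockdown libraries held Tcrg-V6, beside 0 to 2.22% of cells without a Tcrg-C1 UMI. Trgv2 was held by 3 of 9, 2 of 3, 7 of 25 and 23 of 44, but also by 28.3 to 36.4% of the cells without. Of such Cd8 Ccl5-high cells, 1 of 5, 1 of 12, 6 of 23 and 4 of 36 held Tcrg-V6, and 0 of 5, 5 of 12, 5 of 23 and 11 of 36 held Tcrg-V7, beside at most 0.248 and 0.995% of those without.

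Trdc, the delta chain constant gene, had its highest steady level outside the 6 classes. Cells with a Cd3 chain but no Cd4, Cd8 or Foxp3 UMI held 54.8 and 93.7 Trdc CPM in the control against 92.6 and 83.2 in the knockdown libraries. In Cd8 Ccl5-high cells Trdc was at 7.16 and 11.1 against 23.7 and 21.8 CPM (log2 1.33, SE 0.21). There 3 and 4 control cells and 28 and 30 knockdown cells held a UMI, or 0.771 and 0.922% against 3.94 and 3.37%. Myeloid cells gave shares of 1.82 and 0% in the control against 0.746 and 0% in the knockdown from 54 to 134 cells per library, too few to set a background level. The control UMIs, 19 and 33, lay mostly in single cells, with up to 13 and 30 in 1 cell. Both control levels of this class lay below the 16.8 to 21.5 CPM of free RNA, and both knockdown levels just above it. In Cd4 and Cd8 Ccl5-low cells Trdc lay between 4.32 and 11.4 CPM with overlapping groups, below the 16.8 to 21.5 of free RNA. The single highest sum, 88.2 CPM in Foxp3 Ccl5-high cells of knockdown library 1, came from 13 UMIs in 1 cell.

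Cells with 10 or more Trdc UMIs numbered 24 and 34 in the control against 12 and 19 in the knockdown libraries, 0.415 to 0.710% of T cells. Of them 20, 25, 6 and 11 lay among the Cd3-positive cells without Cd4, Cd8 or Foxp3 UMIs. A readout that did not enter the choice of these cells was their surface protein. The beta chain tag fell from 140, 139, 126 and 132 per 10000 tag UMIs in cells without Trdc to 21.3, 36.5, 22.8 and 51.1, which is 2.59- to 6.60-fold lower in 4 of 4 libraries. Over summed tag UMIs, the gamma-delta receptor tag was 1.71- to 3.21-fold higher in 3 libraries. In knockdown library 2 it was equal within 1.03-fold, at 11.5 against 11.2. Its median per cell was 5.5, 5.5, 5.5 and 4 UMIs against 4, 3, 5 and 3 in cells without Trdc, a small difference in UMIs. The median of the beta chain tag was 6, 7, 6 and 6 UMIs against 60, 54, 49 and 37. The CD3 tag differed by at most 1.20-fold. Trac went down with the beta chain tag, to 136 and 211 (control) and 468 and 340 CPM (knockdown) from 686 to 713. Tcrg-C2 was present in 58.3 to 84.2% of these cells and Tcrg-C4 in 55.9 to 73.7%. Trbc2 transcripts were still found in 94.7 to 100% of them. Of the gamma-delta lineage markers Sox13, Cd163l1 and Blk, the highest was Cd163l1 (level with Sox13 in knockdown library 1). It stood at 49.5 and 158 CPM in the control against 11.7 and 7.23 in the knockdown libraries. Cells without Trdc held at most 0.584. The knockdown values rest on 12 and 19 cells with medians of 6714.5 and 7236 RNA UMIs. They lie at the lowest level above 0 that so few cells can show. Sox13 and Blk were both at 0 in control library 1 and knockdown library 2, so these cells are named by Trdc alone.

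**Figure D4:**
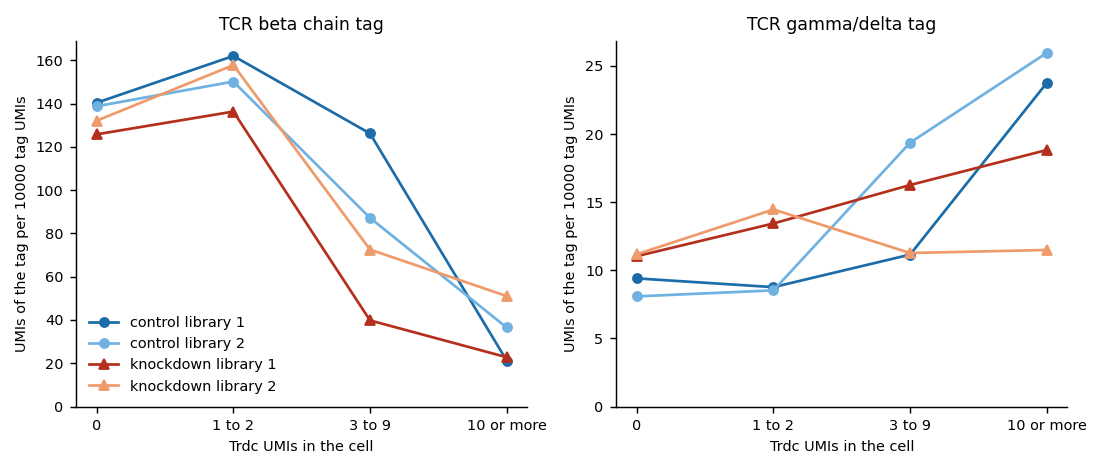
UMIs of the beta chain tag (left) and the gamma-delta receptor tag (right) per 10000 tag UMIs (y axes, from 0) in T cells grouped by their Trdc UMIs (x axis), 1 line per library. The beta chain tag falls to 21.3 to 51.1 in cells with 10 or more Trdc UMIs. As a share of summed tag UMIs, the gamma-delta tag rises in 3 of 4 libraries, to between 18.8 and 26.0.

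Among the kept cells, Prss2 was concentrated in Cd8 Ccl5-high cells of the knockdown tumors. It was found in 1 of 389 and 1 of 434 such cells in the control libraries, with 1 UMI each. In the knockdown libraries it was found in 20 of 710 cells with 94 UMIs and in 45 of 891 cells with 191 UMIs. The shares were 0.257 and 0.230% against 2.82 and 5.05%, and the levels 0.377 and 0.338 against 20.8 and 33.9 CPM. From the summed 2 and 285 UMIs the ratio was 78.9 (exact 95% counting interval 21.6 to 654), wide because the control held so few. That interval counts UMIs as independent, though up to 17 lay in 1 cell, so it is too narrow. It is no test, since this contrast was in view when the gene was chosen. Up to 15 and 17 Prss2 UMIs lay in single knockdown cells, and 15 of 20 and 29 of 45 cells held 3 or more. None of the other 5 classes held more than 5 cells with it in a library. Outside the 6 classes, cells with 3 or more Cd8a and Cd8b1 UMIs that also held Cd4 or Foxp3 carried it in 5 of 108 and 4 of 168 cells of the knockdown libraries and in 0 cells of either control library. In Cd8 Ccl5-low cells it was 2 of 2149 and 4 of 1750 against 0 of 397 and 5 of 608 cells, and the 2 cells of control library 1 held 16 UMIs, so that cells rich in Prss2 also occurred there. Among cells removed as doublets, 4 of 1346 and 6 of 1099 in the control libraries held Prss2, with 39 and 39 UMIs. All kept control cells held fewer, 24 and 21 UMIs. In the knockdown libraries 9 of 483 and 11 of 673 removed cells held 27 and 44 Prss2 UMIs. Free RNA held 2.08 and 0.589 Prss2 CPM in the control against 6.45 and 5.53 in the knockdown libraries.

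Many of these cells shared an alpha variable segment. Among Prss2-positive Cd8 Ccl5-high cells, 11 of 20 and 30 of 45 in knockdown libraries 1 and 2 held a UMI of the alpha variable segment Trav7d-3, which lies on chromosome 14 at 52744249 to 52744840. Of the Prss2-negative cells, 1 of 690 and 1 of 846 did. Read the other way, 11 of 12 and 30 of 31 cells with Trav7d-3 in that class were Prss2-positive, whereas 2 of 256 and 0 of 293 cells with another alpha variable segment were. Variable segments are rarely captured in 3′ libraries, and only 13 and 30 of the Prss2-positive cells held any alpha segment. Of the 5 and 12 with a beta variable segment, 4 and 8 held Trbv14 and 2 and 3 held Trbv12-2. Trbv14 was present in 2 of 690 and 5 of 846 Prss2-negative cells, and Trbv12-2 in 23 of 690 and 27 of 846.

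The beta constant gene was also nearly uniform. Trbc1 made up 1.90 and 1.61% of the beta constant UMIs in Prss2-positive cells, against 27.8 and 28.1% in Prss2-negative cells of the same class. A share under 10% was seen in 17 of 17 and 35 of 38 Prss2-positive cells with enough UMIs. It was also common among the Prss2-negative cells, in 282 of 590 and 346 of 717. All 20 and all 45 held Trac, 0 and 1 held Trdc, and their median Ccl5 count was 63.5 and 61 against 117 and 115 in the Prss2-negative cells. With the cells that held Trav7d-3 left out, a step chosen after seeing the data, Prss2 was still at 7.18 and 11.7 CPM in the knockdown against 0.379 and 0.339 in the control libraries, with 9 and 15 cells. Many cells carry no detected alpha segment, so this step does not remove every cell with that receptor. In the control libraries 2 and 1 cells of this class and 26 and 28 other kept cells held Trav7d-3, and 0 of them held Prss2. The receptor junctions of these cells were not analysed here, so the count of clones cannot be given.

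**Figure D5:**
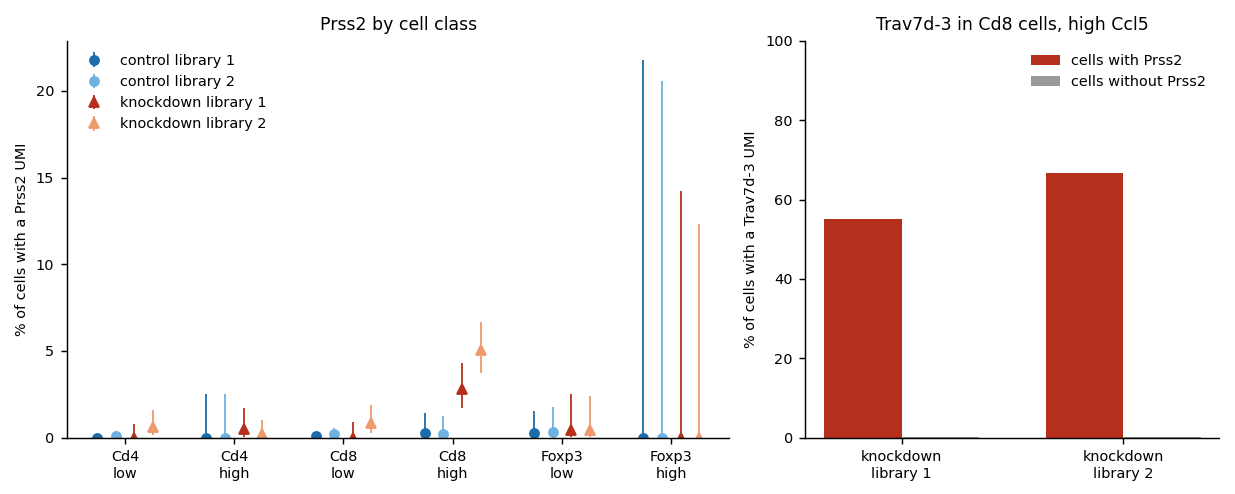
Left: percent of cells with a Prss2 UMI (y axis) in each class and library, with exact binomial 95% intervals that cover counting error only. Right: percent of Cd8 Ccl5-high knockdown cells with a Trav7d-3 UMI, with and without Prss2. Prss2 reaches 2.82 and 5.05% in the knockdown libraries of Cd8 Ccl5-high cells, and Trav7d-3 is found in 55 and 66.7% of the Prss2-positive cells there against 0.145 and 0.118% of the others.

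The position of Prss2 gave a comparison by beta variable segment, which the choice of genes did not use, though the Prss2 counts themselves were in view. Trbv31 lies behind the constant genes in the opposite orientation and joins by inversion, which keeps the DNA with Prss2. Joins of the other beta segments remove that DNA, but only from the rearranged chromosome. Among Cd4, Cd8 and Foxp3 cells with UMIs of exactly 1 beta variable gene, 0 of 54, 0 of 48, 0 of 28 and 0 of 28 Trbv31 cells held Prss2 in control libraries 1 and 2 and knockdown libraries 1 and 2. Of the cells with another segment, 2 of 1318, 0 of 1158, 5 of 602 and 12 of 842 did. The mean difference was -0.60 percentage points, lower with Trbv31 in 3 of 4 libraries and 0 in the other (two-sided exact permutation test over libraries, p = 0.25, with 0.13, rounded, the smallest value the design allows). Because the difference was 0 in 1 library, 0.25 was also the smallest p that this permutation test could give here. With at least 2 UMIs of the beta variable gene required, the difference was 0.0 (p = 1.0 by the same exact test). A count of 0 in that few Trbv31 cells allows shares of up to 5.56 to 10.7%. These limits pool all classes, and the class make-up of the compared cells was not held equal. In Cd8 Ccl5-high cells, where Prss2 was concentrated, only 5 and 3 cells of knockdown libraries 1 and 2 held a Trbv31 UMI. None of those held Prss2. A difference was therefore not detectable at this depth.

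Most other genes of the pancreas on the lists were at or near 0. Of 7 other trypsinogen genes (Prss1, Prss3, Try4, Try5, Try10, Gm5771 and 1810009J06Rik), 5 had no UMI in any class and Try4 and 1810009J06Rik had 1 each. Of 9 genes of pancreatic acinar cells, 7 were at 0. Cela1, an elastase gene, was detected in these T cells at a mean of 16.8 CPM. In Cd4 Ccl5-high cells Cela1 stood at 50.7 and 75.2 CPM in the control against 62.5 and 51.2 in the knockdown libraries, with overlapping groups. In Cd8 Ccl5-high cells it was 9.05 and 7.09 against 13.7 and 17.8, a log2 difference of 1.03 (SE 0.25, adjusted p = 0.000585 by edgeR's quasi-likelihood test with Benjamini-Hochberg adjustment). This call was lost without control library 2 (adjusted p = 0.123) and without knockdown library 2 (adjusted p = 0.0712), and DESeq2 gave no adjusted p for it. In Cd4 Ccl5-low cells Cela1 was at 0.994 and 0.600 against 3.89 and 4.09 CPM, and is given without a test because only the knockdown libraries brought it past the low-count filter.

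No partner of the receptor chains passed the call. The 4 genes of the receptor complex, Cd3d, Cd3e, Cd3g and Cd247, encode the signaling subunits without which the chains do not reach the surface. All 4 were tested in each of the 5 comparisons and 0 were called in any of them by edgeR, where 1.77 to 5.73% of all tested genes were, with median log2 differences of -0.03 to 0.19 beside -0.0021 to 0.0074 over all tested genes. Without the fold limit, edgeR called more genes at an adjusted p under 0.05. These were 1070 of 10523 in Cd4 Ccl5-low, 305 of 8863 in Cd4 Ccl5-high and 846 of 10606 in Cd8 Ccl5-low cells. In Cd8 Ccl5-high cells they were 1224 of 9593, and in Foxp3 cells 569 of 8856. At an adjusted p under 0.05 but below the fold limit, Cd3g differed by 0.18 in Cd4 Ccl5-low, 0.17 in Cd8 Ccl5-high and 0.35 in Foxp3 cells, Cd3e by 0.12 in Cd8 Ccl5-high and 0.27 in Foxp3 cells, and Cd247 by -0.27 in Cd4 Ccl5-high and -0.23 in Cd8 Ccl5-high cells. Of 10 genes of receptor-proximal signaling, among them the kinases Lck and Zap70 and the adaptor Lat, 1 was called in 1 of the 5 comparisons, a share near that of all genes. Below the fold limit, at an adjusted p under 0.05 by edgeR, Lat differed by -0.20 in Cd4 Ccl5-low, -0.38 in Cd4 Ccl5-high, -0.20 in Cd8 Ccl5-low and -0.15 in Cd8 Ccl5-high cells. Zap70 differed by 0.22 in Cd4 Ccl5-low, 0.36 in Cd8 Ccl5-high and 0.37 in Foxp3 cells, and Cd6 by 0.24, 0.22 and 0.30 in the same classes. The costimulatory receptor gene Cd28 differed by -0.48 in Cd4 Ccl5-high, 0.27 in Cd8 Ccl5-low and -0.36 in Cd8 Ccl5-high cells, and Ptprc by -0.10 in Cd4 Ccl5-low and -0.13 in Cd8 Ccl5-high cells. Cd5, an inhibitory coreceptor whose level follows receptor signaling, was lower in Cd4 Ccl5-high cells, at 203 and 196 CPM in the control against 137 and 130 in the knockdown libraries (log2 -0.50, SE 0.090, adjusted p = 0.00187 by edgeR). Its difference lay at the fold limit and fell short of it without control library 1 (-0.49), without knockdown library 2 (-0.47) and with doublets kept (-0.38). It also fell short without the upper limit on genes per cell (-0.43) and without the low-count filter (-0.48).

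Genes of receptor assembly were absent or scarce. Rag1 and Rag2, the recombinase genes, had 0 UMIs in all 24 sums. Dntt, the polymerase that adds bases at the joins, and Ptcra, the chain that stands in for the alpha chain in thymocytes, had means of 1.06 and 0.745 CPM. In Cd8 Ccl5-low cells Ptcra stood at 0.452 and 0.590 CPM in the control against 1.14 and 2.16 in the knockdown libraries. It passed the low-count filter only through the knockdown libraries, so no test is given for it. Of 14 other genes of the receptor loci (Tcrg-C3, Trbv31 and the gamma and delta variable segments named Tcrg-V and Trdv), only 2 in Cd4 Ccl5-low, 1 in Cd4 Ccl5-high, 2 in Cd8 Ccl5-low, 4 in Cd8 Ccl5-high and 0 in Foxp3 cells had enough UMIs to be tested. The gene tested in Cd4 Ccl5-high cells, the gamma segment Tcrg-V6, stood at 0 and 3.05 CPM in the control against 15.8 and 15.9 in the knockdown libraries. The same holds for this segment, and no test is given. Of the 4 genes tested in Cd8 Ccl5-high cells 1 was called, where 5.73% of all tested genes were. Tcrg-V3 was lower in Cd8 Ccl5-high knockdown cells, at 13.6 and 11.5 against 5.54 and 4.44 CPM (log2 -1.29, SE 0.28, adjusted p = 0.000118). DESeq2 gave no adjusted p for Tcrg-V3.

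Surface receptor protein was read from antibody tags, which the choice of genes did not use. The share of tested tags called was 21.3% in Cd4, 21.3% in Cd8 and 18.3% in Foxp3 cells of any Ccl5 level, and the share called lower was 12.7, 13.2 and 11.2%. The tag for the beta variable chains Vb5.1 and Vb5.2 was called lower in the knockdown in all 3 classes (log2 -0.64, SE 0.071, in Cd4; -0.70, SE 0.044, in Cd8; and -0.76, SE 0.093, in Foxp3 cells; adjusted p = 0.00553, 0.00157 and 0.00141 by edgeR). The beta chain tag, which reads the products of both Trbc1 and Trbc2, differed by -0.46 (SE 0.049), -0.47 (SE 0.037) and -0.30 (SE 0.078), with adjusted p of 0.00519, 0.00253 and 0.0213 by edgeR, below the fold limit of 0.5. These sums mix Ccl5-low and Ccl5-high cells, whose shares differ between the groups. The CD3 tag, at 0.11, -0.014 and 0.0062, and the gamma-delta receptor tag, at -0.19, 0.064 and 0.067, were not called. These differences depended on the scaling. Without the TMM factors, as total-count scaling chosen after seeing the data, the median tag stood at 0.28, 0.43 and 0.35 instead of 0.026, 0.018 and 0.016, the beta chain tag stood at -0.21, -0.063 and 0.039, reversing in Foxp3 cells, and the Vb5 tag at -0.39, -0.29 and -0.42, inside the fold limit and so no longer called in any of the 3. The CD3 tag then stood at 0.35, 0.40 and 0.34 and the gamma-delta receptor tag at 0.059, 0.47 and 0.41, also inside the fold limit. Within the Ccl5 classes the Vb5 tag took 31.3 and 32.9 per 10000 tag UMIs of Cd8 Ccl5-low cells in the control against 31.7 and 32.7 in the knockdown libraries, and 15.8 and 14.6 against 18.5 and 19.7 of Cd8 Ccl5-high cells. In Cd4 Ccl5-low cells it took 18.5 and 20.9 against 20.6 and 15.9, and in Cd4 Ccl5-high cells 18.7 and 12.5 against 11.7 and 12.01. On this scale it was thus not lower in the knockdown in either Cd8 class. The split of calls changed from 17 higher and 25 lower to 36 and 17 in Cd4 cells, from 16 and 26 to 75 and 11 in Cd8 cells, and from 14 and 22 to 57 and 5 in Foxp3 cells. The isotype controls, which bind no mouse antigen, took a mean of 2.24 to 3.62 per 10000 tag UMIs in control and 3.61 to 5.29 in knockdown Cd4 and Cd8 cells.

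Across the Cd8 classes the beta chain tag, as a share of tag UMIs, and the beta chain transcripts moved differently. The beta chain tag took 110 and 112 per 10000 tag UMIs in Cd8 Ccl5-low and 69.6 and 73.0 in Cd8 Ccl5-high cells of the control libraries, and 128 and 127 against 82.2 and 85.6 in the knockdown libraries. It was lower in Ccl5-high cells in 4 of 4 libraries, while Trbc2 transcripts there were 1.54- to 1.80-fold higher. On this scale, which has no TMM factors, the knockdown libraries had the higher share of beta chain tag in each Ccl5 class of the Cd8 cells, while the difference fitted without TMM factors over all Cd8 cells was -0.063. In Cd4 cells it went from 190 and 188 to 149 and 154 and from 191 and 188 to 131 and 141. The mean isotype control was also lower in Ccl5-high cells, at 2.57 and 2.47 against 3.04 and 2.99 in Cd8 and at 2.24 and 2.25 against 3.62 and 3.43 in Cd4 cells of the control libraries. In the knockdown libraries it was 3.74 and 4.07 against 4.67 and 4.80 in Cd8 and 3.61 and 3.67 against 5.29 and 5.01 in Cd4 cells. A lower share of tag UMIs is therefore not read as less protein on the cell.

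The genes whose levels were most like those of a member were named over the 24 sums, by the Pearson correlation of log2(CPM + 1) over the 4914 genes whose mean reached 20 CPM. The sums share libraries, depth and cell classes, so these values are a description. For Trac they were H3f3b (r = 0.95), Gapdh (0.93) and Gnai2 (0.93), and the least like was the mitochondrial gene mt-Nd1 (-0.92). For Trbc1 they were Eif3j1 (0.76), Spp1 (0.70) and Ccdc47 (0.67), and the least like was Ifnar2 (-0.84). No gene with a positive correlation matched the Trbc1 pattern closely. Trbc2 went with Arid5a (0.85), Cdk2ap1 (0.83) and Immp1l (0.82), and was least like Tnfaip8l2 (-0.77). Tcrg-C2 went with Cd244a (0.95), a receptor of effector and natural killer cells, Glp1r (0.94) and B4galt5 (0.93). It was least like Rcsd1 (-0.91). The other 4 members lay below that level and were not compared.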

How the data were processed

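CITE-seq was performed on 2 control and 2 knockdown libraries with 10x Genomics 3′ chemistry. The authors deposited raw UMI counts for 32285 genes and 198 antibody tags, made with Cell Ranger on the mouse build mm10 (the version differs among the sources used here), of which 1 unnamed tag was left out. Seurat 4.0.0 is also named in the submitters' processing notes. Cells with 200 to 3000 genes and at most 5% mitochondrial UMIs were kept, and doublets were removed with 2 simulated doublets per cell, 2000 variable genes, 30 components and 50 neighbours. Cells with 10 or more UMIs of myeloid or B cell markers were set aside. Foxp3 cells held Foxp3, Cd4 cells Cd4 without Foxp3, both with under 3 Cd8a and Cd8b1 UMIs, and Cd8 cells held 3 or more of these without Cd4 or Foxp3. UMIs were summed per class and library. For shares of cells across depths, cells were thinned to 1000 UMIs.

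Sums were fitted over all genes or tags with edgeR 4.0.16 (quasi-likelihood, TMM, filterByExpr) in R 4.3.3. The fit was tested on simulated data. Genes and tags were called at an adjusted p (Benjamini-Hochberg) under 0.05 with a log2 difference of 0.5 or more in size. Alternatives were DESeq2 1.42.0, other scaling, filters, a replicate block, a Ccl5 limit of 10 and leaving out each library. With duplicate lanes of 1 pool per group, as the labels give it, p-values measure only the spread between lanes (the study's text also speaks of independent samples). Intervals are exact binomial at 95%, and the limit for a count of 0 is 3 counts. Named genes were the 8 members and the genes of 6 lists that were called or had a mean over 5 CPM. For each member with a mean that reached 20 CPM, the 3 genes most like it and the least like were also named. Variable segments and tags beside them were named after their values were seen. The members and lists were chosen with earlier results of these data known. Gene positions came from the GENCODE annotation of GRCm38, to which 99.8% of gene identifiers matched. Python 3.11.15, numpy 2.4.6, pandas 2.3.3, scipy 1.17.1, scikit-learn 1.9.0 and matplotlib 3.10.9 were used.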

Additional observations from a re-analysis of the deposited data

Results flagged for a closer look

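For 3 member genes the libraries of 2 classes moved in opposite directions between the groups, and none of these differences between classes was tested. Trbc2 had a log2 ratio, knockdown over control, of 0.60 in Foxp3 Ccl5-high cells and -0.19 in Cd4 Ccl5-high cells, the former from 15 to 28 cells per library. Tcrg-C2 had a log2 ratio of 3.69 in Cd4 Ccl5-low cells, where its level lay below that of free RNA, and -0.52 in Cd4 Ccl5-high cells. Tcrg-C4 had a log2 ratio of 2.01 in Cd8 Ccl5-low cells, where its level was at most 1.62 CPM and the ratio became 1.38 without control library 1 and 3.19 without control library 2, and -0.11 in Cd8 Ccl5-high cells.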

How the results depend on the processing

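In the order Cd4 Ccl5-low, Cd4 Ccl5-high, Cd8 Ccl5-low, Cd8 Ccl5-high and Foxp3 cells, edgeR called 459, 157, 263, 550 and 310 genes and DESeq2 232, 51, 116, 143 and 72. Without the fold limit edgeR called 1070, 305, 846, 1224 and 569 genes and 106, 123 and 87 tags in Cd4, Cd8 and Foxp3 cells, instead of 42, 42 and 36. A Ccl5 limit of 10 gave 291 genes in Cd4 Ccl5-low cells. In Cd4 Ccl5-high cells there were 240 without the low-count filter and 239 with doublets kept. Leaving out 1 library gave 222 to 364, 151 to 185, 98 to 190, 291 to 409 and 199 to 308 genes. The lowest counts came without knockdown library 2 in both Ccl5-low classes (knockdown library 1 gave 267 and 132), without control library 2 in Cd8 Ccl5-high and without control library 1 in Foxp3 cells. Total-count scaling, chosen after seeing the data, gave 86 tags in Cd8 and 62 in Foxp3 cells. Libraries share only a replicate number (correlation of same-numbered deviations -0.258 to 0.038), and a replicate block gave 175 genes in Cd8 Ccl5-low cells, while the crossed block, chosen after seeing the data, gave 43 tags in Cd8 cells. Of 308 alternative values for 41 ratios of the member genes, 252 moved by less than 1 SD between libraries, 55 by more, and 1 with groups that did not overlap and a log2 ratio of at least 0.5 in size reversed: Trdc in Cd4 Ccl5-high cells, from 1.82 to -1.45 with doublets kept. With 2 libraries per group, leaving 1 out moves a ratio by about 1 SD or less mostly by construction. This count is therefore no measure of stability. The Trbc1 share of Cd8 Ccl5-high cells differed by 7.87 to 12.1 percentage points with 1 library left out. The cause of these changes was not tested. With 2 lanes of 1 pool per group, as the labels give it, the group cannot be told apart from the pool.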
